A study of Mus musculus with 4 samples.

Results

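The genes for histone lysine methyltransferases and demethylases were examined for dimethylation of lysine 79 of histone H3 (H3K79me2) in mouse double-negative thymocytes. Members were the protein-coding RefSeq genes on chromosomes 1 to 19 whose symbols belong to the Kmt2 (b to e), Kmt5, Setd, Nsd, Ezh, Ehmt, Suv39h and Kdm families. This rule gave 40 of 20661 autosomal coding genes, 25 for methyltransferases or SET-domain relatives and 15 for demethylases. The study holds 4 samples. The inhibitor group is C57BL/6 double-negative thymocytes that developed with A939572, which blocks the stearoyl-CoA desaturase SCD1, and the control group is the same kind of cell developed with DMSO. Each group has 1 ChIP library and 1 input, and the inputs are not analysed here. In both groups the cells came from haematopoietic stem cells cultured with Flt-3L (5 ng/mL) and IL-7 (2 ng/mL) on OP9-DL1 stroma, a bone marrow line that presents a Notch ligand, and were collected at the DN3 stage. They are therefore thymocytes made in culture, and stromal cells were present during growth. With 1 library per condition there is no replicate error, and differences are given without a p-value.

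Lysine methyltransferases add methyl groups to histone tails and demethylases remove them. H3K4 methylation marks promoters and enhancers of active genes, H3K36 methylation lies over transcribed gene bodies, H3K27 methylation by Polycomb complexes accompanies repression, and H3K9 methylation is known from heterochromatin. H3K79me2 is a different mark, laid down by DOT1L over the early part of transcribed genes, so its coverage of a gene is read here only as the presence of that mark. The measure was the percent of the gene body covered by the authors' called broad peaks, for all peaks and for strong peaks, those with q of at most 0.05. Peaks above that q are called weak. Values "with inhibitor" and "with DMSO" refer to the peak lists of those libraries. A gene was called marked where at least 50% of its body was covered, and a difference between the lists was counted from 25 percentage points.

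The inhibitor list held 35018 peaks and the control list 124962, over nearly equal lengths of 233.6 Mb and 234.8 Mb. Strong peaks numbered 6528 over 153 Mb with inhibitor and 804 over 11.1 Mb with DMSO. The number of reads is unknown, and its part in the differences below was not tested. Of 14 DN thymocyte markers, among them Bcl11b and Rag1, 13 were marked with inhibitor and 9 with DMSO. The other was Ptcra, at 47.1% and 18.1%. By strong peaks the counts were 12 and 7. The coverage of Rag1 with DMSO, 83.8%, came from weak peaks only, and Cd3e and Ptcra had no strong peak in either list. None of 8 OP9 stroma, 6 B cell, 6 myeloid and 4 erythroid markers was marked in either list. Their covered percents ran from 0 to 45.3% with inhibitor and from 0 to 23.8% with DMSO, with Col3a1, Cxcl12, Cd79a and Cebpa at 0 in both. The highest inhibitor value was at the stroma marker Pdgfrb, a growth factor receptor of mesenchymal cells, at 45.3% with inhibitor and 9.18% with DMSO (44.2% and 0% by strong peaks). The other stroma markers had 0 to 1.88% with inhibitor and 0 to 15.3% with DMSO. The part of stromal cells in the results was not tested.

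Most of the 40 genes were covered more widely in inhibitor cells. Peaks marked 24 of the 40 (60%) with inhibitor, against 27% of all autosomal coding genes, and 4 (10%) with DMSO, against 5.73%. The median covered percent was 67.2% with inhibitor and 17.8% with DMSO, whereas over all autosomal genes the medians were 1.27% and 2.96%. The covered percent with inhibitor exceeded that with DMSO by at least 25 points at 30 members (75%, against 31% of all genes) and fell short of it by as much at 0 (against 3.24%). The difference was above 0 for 39 of 40, against 44.9% of all genes. The exception was Kdm4d.

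Strong peaks alone marked 18 members with inhibitor (45%, against 20.3% of all genes) and 0 with DMSO (against 1.38%). At least 1 strong peak was found for 36 members with inhibitor (90%, against 35.8%) and for 9 with DMSO (22.5%, against 4.04%). By strong peaks, 27 members were covered at least 25 points more with inhibitor (67.5%, against 27.2%) and 0 at least 25 points less, as for 0 of all genes. The background contains many genes with no called peak, 30.1% of them in neither list, while every member held an inhibitor peak. Among the 10955 genes with an inhibitor peak, 50.9% were marked with inhibitor and 58.5% had at least 25 points more there, which is nearer the members' 60% and 75%. Among the 7400 genes with a strong inhibitor peak, 56.7% were marked by strong peaks, against 18 of 36 such members (50%). Of the same 7400 genes 11.3% also held a strong control peak, against 9 of the 36 members (25%).

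**Figure D1:**
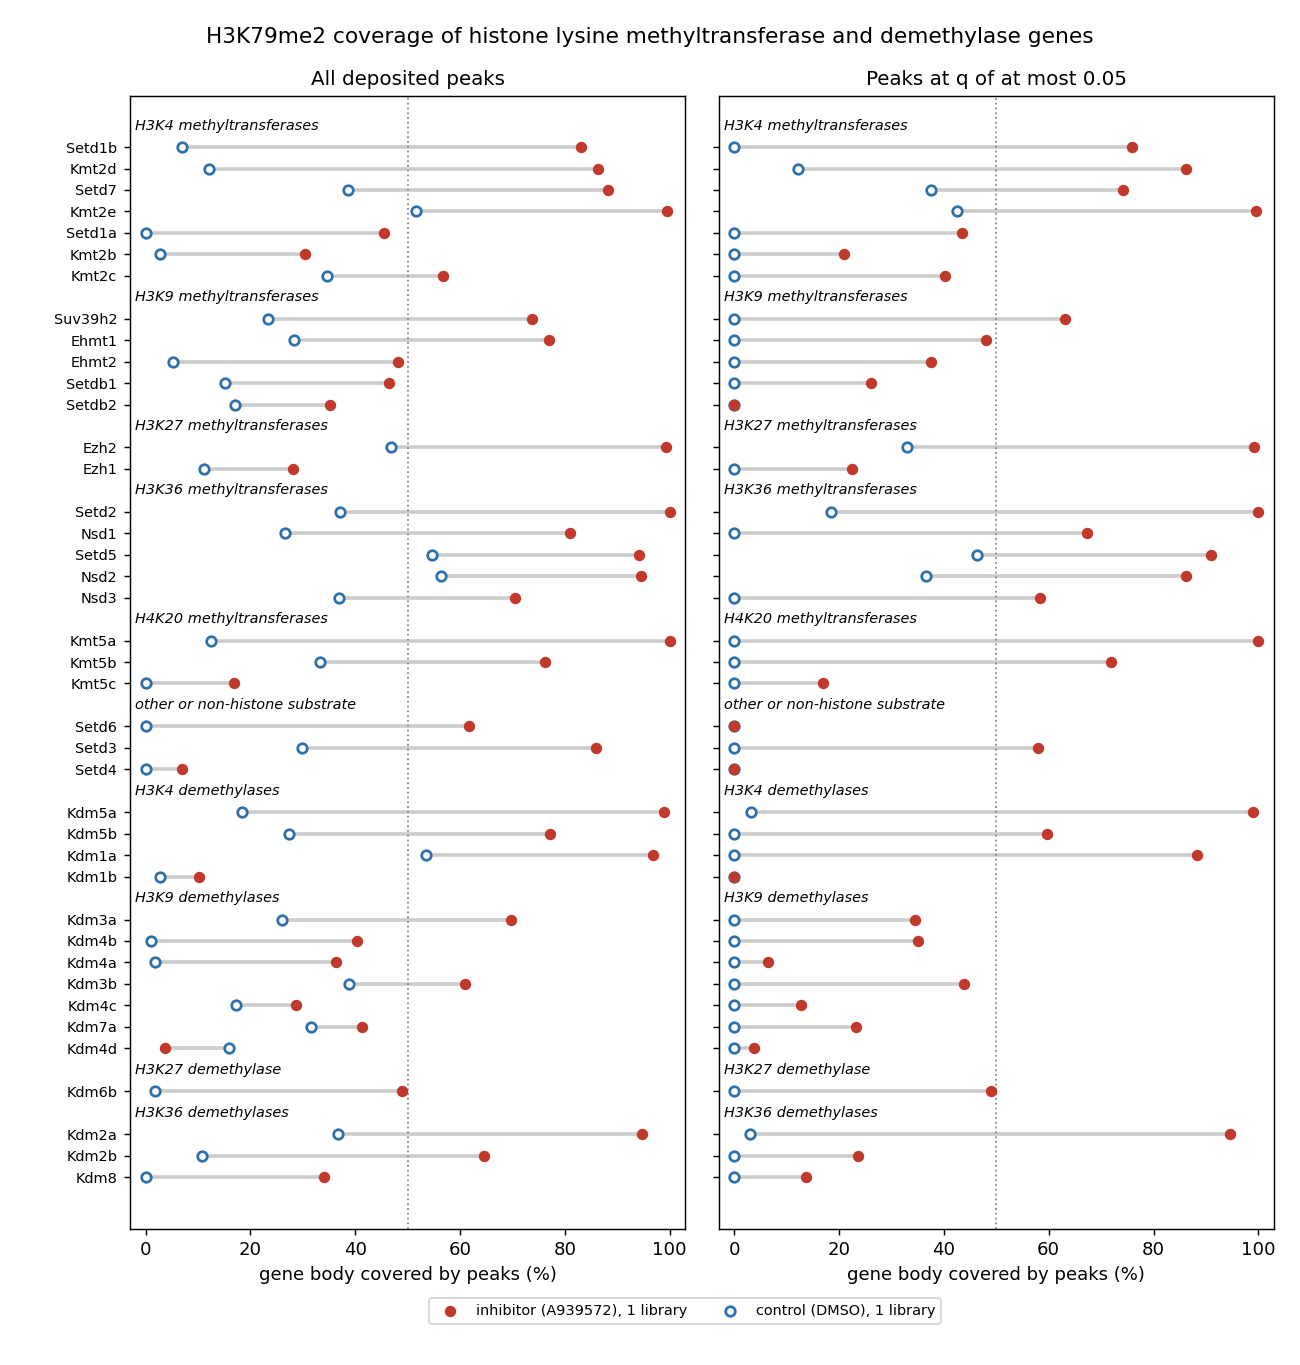
Percent of each gene body covered by peaks in the inhibitor library (filled red) and the control library (open blue), by target residue, for all peaks (left) and strong peaks, q of at most 0.05 (right); the dotted line marks 50%. The red point lies right of the blue one for 39 of 40 genes on the left, all but Kdm4d, and on the right 31 genes have their control point at 0.

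All 5 H3K36 methyltransferases were marked with inhibitor, for all peaks (against 27% of all autosomal genes) and for strong peaks (against 20.3%). With DMSO 2 were marked (against 5.73%), and 0 by strong peaks (against 1.38%). Their median body was 86.1 kb, and shares by gene length are given below. Setd2, which makes H3K36 trimethylation behind elongating RNA polymerase II (chromosome 9, 110532500 to 110618633, mm10), was covered over 100% with inhibitor and 37.1% with DMSO, and by strong peaks over 100% and 18.5%. A single inhibitor peak of 94.6 kb took in the whole gene, whereas the control list had 10 peaks there. Of these only the first was strong, and it reached 15.9 kb into the gene. Nsd2, which makes H3K36 dimethylation and lies on chromosome 5 (33820676 to 33897966), was covered over 94.6% and 56.3%, the highest control value of the 40. Its inhibitor peak had the highest fold enrichment at any member, 4.80, and at −log10 q 17.7 ranked 116 by q in its list. Its control peak spanned 28.2 kb. These scores are the authors' and are means over each broad peak, so they rank peaks within a list only.

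The related Nsd1 was covered over 80.9% with inhibitor and 26.5% with DMSO, and Nsd3 over 70.5% and 36.8%. Neither had a strong control peak. Setd5, a SET-domain protein placed in this class although its activity is debated, was covered over 94.2% and 54.6% (90.9% and 46.3% by strong peaks). Its inhibitor peak spanned 102 kb, and its control peak of 45.6 kb was the widest control peak at any member. Of the inhibitor peak 32.8 kb lay outside the gene body.

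The H3K27 methyltransferases differed from each other. Ezh2, the catalytic subunit of Polycomb repressive complex 2 in dividing cells (chromosome 6, 47530274 to 47595270), was covered over 99.2% with inhibitor and 46.8% with DMSO. Both lists held a strong peak there, of 108 kb with inhibitor and 21.5 kb with DMSO. The inhibitor peak ran 43.2 kb past the gene. Ezh1, the alternative subunit known from resting cells (chromosome 11, 101191115 to 101226463), was covered over 28.2% and 11.2%. Its strong inhibitor peak of 7.95 kb lay at the start of the gene, and its control peak of 3.95 kb was weak. The inhibitor values of the pair were 71.0 points apart and the control values 35.6 points apart.

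Among H3K4 methyltransferases 5 of 7 were marked with inhibitor (against 27% of all autosomal genes) and 1 with DMSO (against 5.73%). Strong peaks marked 4 with inhibitor (against 20.3%) and 0 with DMSO (against 1.38%). Kmt2d, the enhancer methyltransferase MLL4 (chromosome 15, 98831669 to 98874077), was covered over 86.3% with inhibitor and 12.2% with DMSO, by strong peaks alone. Its 3 inhibitor peaks followed each other along the gene, while the only control peak spanned 5.16 kb near the start. Its close relative Kmt2c was covered over 56.8% and 34.5%, the control part by 21 weak peaks. Kmt2b, which acts at promoters, was covered over only 30.4% and 2.68%.

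The COMPASS subunits Setd1a and Setd1b make H3K4 trimethylation at promoters. Setd1b (chromosome 5, 123142040 to 123168630) was covered over 83.1% with inhibitor and 6.93% with DMSO. Setd1a was covered over 45.5% and 0%, just under the 50% threshold. At Setd1b the widest inhibitor peak, of 25.9 kb, had only 4.98 kb inside the gene. Kmt2e, a relative without clear methyltransferase activity (chromosome 5, 23433036 to 23504235), was covered over 99.6% with inhibitor and 51.6% with DMSO. Setd7, which also methylates many proteins that are not histones, was covered over 88.3% and 38.5%. Both genes carried strong peaks with inhibitor and with DMSO, of 95.8 kb and 30.3 kb at Kmt2e and of 36.05 kb and 17.1 kb at Setd7.

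Among H3K9 methyltransferases 2 of 5 were marked with inhibitor (against 27% of all autosomal genes) and 0 with DMSO (against 5.73%). Strong peaks marked 1, Suv39h2, with inhibitor (against 20.3%) and 0 with DMSO (against 1.38%). None held a strong control peak (against 4.04% of all genes that did). Ehmt1 and Ehmt2 encode GLP and G9a, which work as a pair on H3K9 dimethylation. Ehmt1 was covered over 77.0% with inhibitor and 28.3% with DMSO. Ehmt2 was covered over 48.2% and 5.23%, with 1 strong inhibitor peak of 9.54 kb. Setdb1, which silences retroelements, was covered over 46.4% and 15.2%. Its widest inhibitor peak had 3.35 kb inside the gene and 13.7 kb outside. Suv39h2, a heterochromatin enzyme, was covered over 73.7% and 23.3%, and Setdb2 over 35.3% and 17.1%. For these genes the assignment is uncertain, because 96.0% of the Suv39h2 body lies within Dclre1c and the whole Setdb2 body within the gene model Gm45935.

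Kmt5a, the only known H4K20 monomethyltransferase and needed in the cell cycle (chromosome 5, 124439930 to 124462311), had the largest difference of the 40 genes, 87.5 points. It was covered over 100% with inhibitor and 12.5% with DMSO, and by strong peaks over 100% and 0%. The inhibitor peak spanned 48.3 kb, 25.9 kb of it beyond the gene, whereas the 2 control peaks were weak and the wider spanned 2.00 kb. Kmt5b, which adds further methyl groups at H4K20, was covered over 76.2% and 33.2%. Its relative Kmt5c was covered over 16.9% and 0%.

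Proteins of the SET family that act mainly outside histones or whose target is unclear gave mixed values. Setd3, an actin histidine methyltransferase, was covered over 86.0% with inhibitor and 29.9% with DMSO. Setd6, which methylates the NF-κB subunit RelA, had 61.8% and 0% of its body covered, with no strong peak. The wider of its 2 peaks spanned 32.3 kb with 1.29 kb inside Setd6, and 43.9% of the gene is shared with Cnot1. Setd4 was covered over 6.92% and 0%, also by a weak peak.

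**Figure D2:**
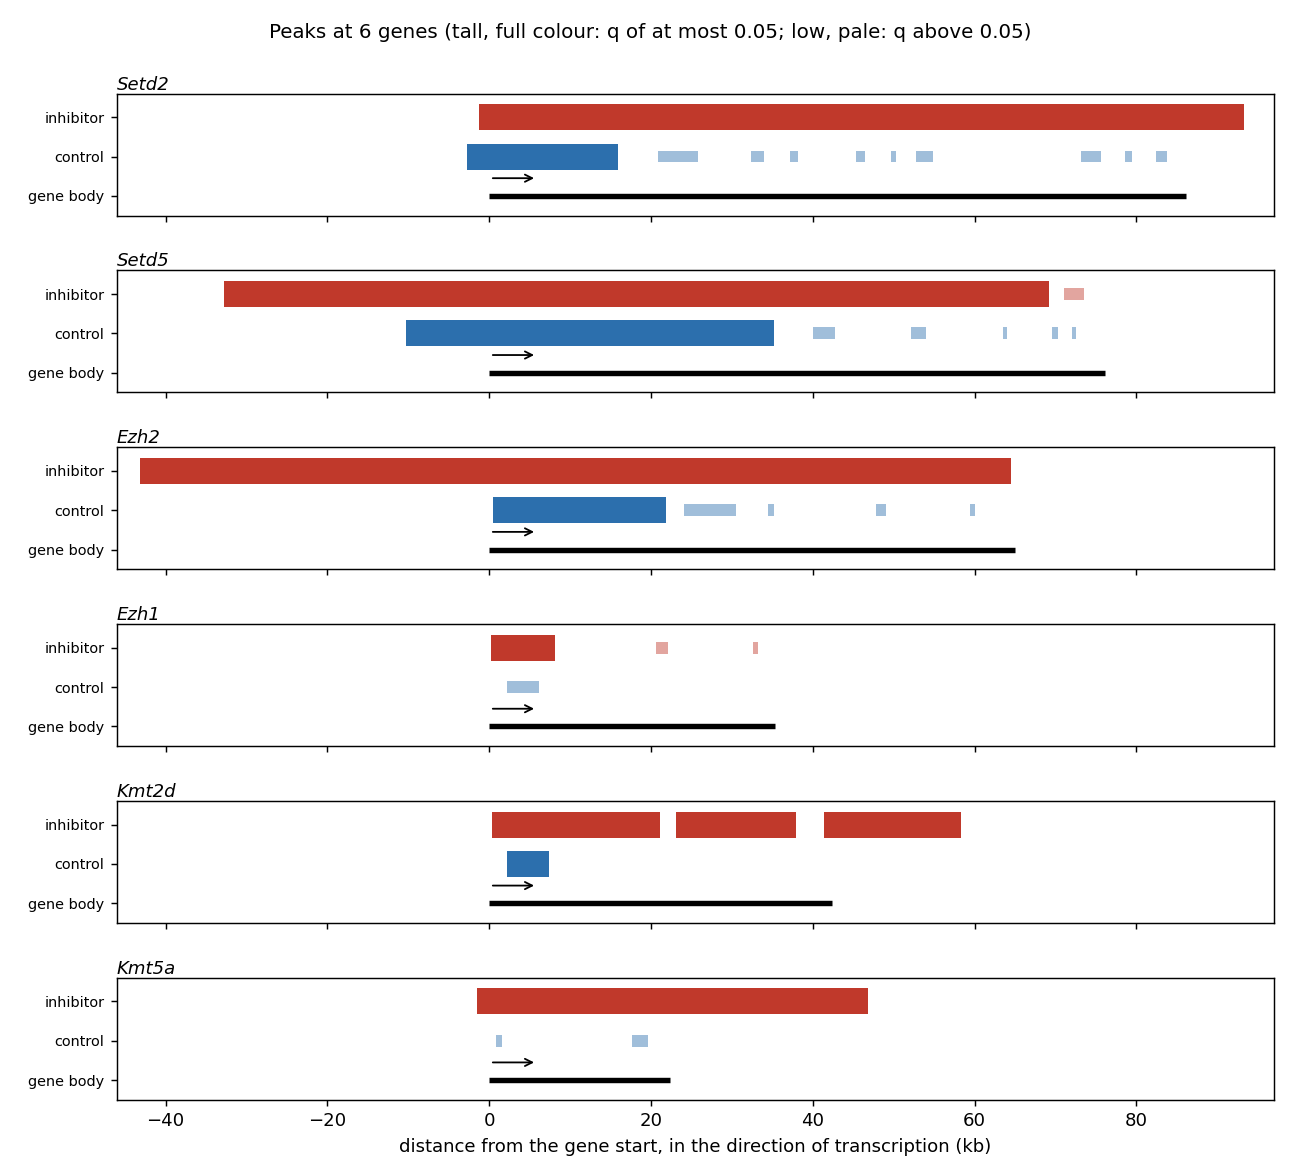
Called peaks with inhibitor (red) and with DMSO (blue) at 6 genes, against distance from the gene start in kb; tall bars are strong peaks and low pale bars weak ones. At Setd2, Setd5 and Ezh2 the strong control peak sits at or near the gene start and the inhibitor peak spans most or all of the gene. At Ezh1 the only strong inhibitor peak stays within the first 8.17 kb.

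Demethylases were covered less widely than methyltransferases in these lists. Of 15 demethylase genes 7 were marked with inhibitor and 1 with DMSO, with medians of 49.0% and 17.2%. Among all autosomal genes the marked shares were 27% and 5.73%, and 20.3% and 1.38% by strong peaks. The counts by residue and by partner list stand against these same shares. Of the 25 methyltransferase genes 17 and 3 were marked, with medians of 76.2% and 23.3%. This is a description of the 40 genes, and no test was made of it. The median difference was 39.4 points for demethylases and 45.5 points for methyltransferases.

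Among H3K4 demethylases 3 of 4 were marked with inhibitor and 1 with DMSO. Kdm1a, which encodes LSD1, the flavin-dependent enzyme of the CoREST complex (chromosome 4, 136550533 to 136602787), was covered over 96.9% with inhibitor and 53.6% with DMSO. Its control peak of 24.0 kb was weak, with −log10 q at 0.988. For its relative Kdm1b, where all peaks were weak, the values were 10.1% and 2.71%, the lowest inhibitor value of the class. Kdm5b was covered over 77.2% and 27.3%.

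Kdm5a, a demethylase of H3K4 trimethylation (chromosome 6, 120364099 to 120444574), was covered over 98.9% with inhibitor and 18.3% with DMSO. With inhibitor there was 1 peak of 82.8 kb, at −log10 q 3.87. With DMSO there were 11 peaks, of which 1 was strong. That peak spanned 2.56 kb (120364499 to 120367062), and its −log10 q, 7.50, was the highest at any member in that list. With −log10 q of at least 5 only this control peak was left at the gene, and the difference was −3.19 points in place of 80.6.

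Of 7 H3K9 demethylases 2 were marked with inhibitor (against 27% of all autosomal genes) and 0 with DMSO (against 5.73%). Strong peaks marked none in either list (against 20.3% and 1.38%). Kdm3a was covered over 69.7% with inhibitor and 26.1% with DMSO, and Kdm3b over 61.0% and 38.7%. Kdm4a to Kdm4c, whose enzymes act on trimethylated H3K9 and H3K36, had lower inhibitor values. Kdm4a was covered over 36.4% and 1.82%, Kdm4b over 40.3% and 0.933%, and Kdm4c over 28.7% and 17.2%. Each of these 3 held 1 strong inhibitor peak, which covered 6.44% of Kdm4a, 35.0% of Kdm4b and 12.7% of Kdm4c. The rest of their coverage came from weak peaks.

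Kdm4d was the only member covered more with DMSO, over 3.76% with inhibitor and 15.9% with DMSO, a difference of −12.1 points. All 4 of its control peaks were weak. Its inhibitor peak of 7.23 kb was strong, with 1.43 kb inside the gene and 5.81 kb beyond it. By strong peaks the values were 3.76% and 0%, and the sign of the difference turned. Kdm7a was covered over 41.2% and 31.6%, with 3 inhibitor and 9 control peaks.

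Kdm6b, the H3K27 demethylase JMJD3, was covered over 49.0% with inhibitor by 1 strong peak of 10.7 kb, and over 1.75% with DMSO. It lay just under the 50% threshold. Among H3K36 demethylases, Kdm2a (chromosome 19, 4316144 to 4398721) was covered over 94.7% and 36.6%, by 1 inhibitor peak of 78.2 kb and 8 control peaks. Kdm2b, which recruits a Polycomb complex to CpG islands, was covered over 64.6% and 10.7% by 14 and 8 peaks. Of these, 2 inhibitor peaks and 0 control peaks were strong, and strong peaks covered 23.6% and 0%. Kdm8, for which H3K36 activity is debated, was covered over 34.1% and 0%, and by strong peaks over 13.7% and 0%.

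Members held a median of 3 inhibitor peaks and 4 control peaks, up to 14 inhibitor peaks at Kdm2b and Kmt2c and up to 21 control peaks at Kmt2c. All 40 genes (100%, against 53% of all genes) held an inhibitor peak and 35 (87.5%, against 57.4%) a control peak. Those without a control peak were Setd1a, Setd4, Setd6, Kmt5c and Kdm8. The median width of peaks at members was 3.57 kb with inhibitor and 1.90 kb with DMSO, and 20.8 kb and 18.7 kb among the 43 and 9 strong peaks. Over all autosomes the median widths of strong peaks were 14.2 kb and 8.36 kb.

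Coverage was concentrated at gene starts. The strand was known for 29 members from a RefSeq promoter table. Their first 5 kb had a median coverage of 100% with inhibitor and 29.8% with DMSO, against 29.5% and 0% for the last 5 kb. Over all 16456 genes of known strand each of these medians was 0%. At least 50% of the first 5 kb was covered at 25 of the 29 with inhibitor (86.2%, against 37.7% of 16456 genes of known strand) and at 13 with DMSO (44.8%, against 13.5%). For strong peaks alone the counts were 22 (75.9%, against 30.7%) and 5 (17.2%, against 3.05%). The first 5 kb was better covered than the last at 24 genes with inhibitor and 17 with DMSO, and the reverse held at 2 and 6. Among the 16456 genes the first 5 kb was better covered at 5408 and 4606, and the reverse held at 827 and 2006. The lean towards the start was therefore not particular to the members.

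Counting all peaks, the lists were closer to each other at the start than over the body for many strongly covered genes. Setd2 and Setd5 were covered over 100% of the first 5 kb in both lists. Ezh2 was covered there over 100% with inhibitor and 91.2% with DMSO, and Setd7 over 100% and 87.3%. For Ehmt1 these values were 100% and 86.5%, and for Kdm1a 100% and 86.2%. By strong peaks Setd2, Setd5, Ezh2 and Setd7 kept these values, whereas Ehmt1 and Kdm1a had 100% with inhibitor and 0% with DMSO. The median difference by strong peaks was 66.0 points at the first 5 kb of the 29 members. Over the bodies of all 40 members it was 43.7 points, so by strong peaks the lists were not closer at the start. The difference was at least 25 points at the first 5 kb for 17 of 29 members (58.6%, against 34.3% of all genes of known strand), and by strong peaks for 20 (69%, against 30.6%).

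Other genes differed more at the start than over the body. Kdm1b was covered over 75.3% of its first 5 kb with inhibitor and 0% with DMSO, and Setdb2 over 100% and 29.8%, by weak peaks. Ezh1 was covered there over 95.8% and 55.3%, and Kmt2c over 100% and 62.8%. Setd1a and Kdm2b were covered over 100% of the first 5 kb with inhibitor and 0% with DMSO. No inhibitor peak reached the first 5 kb of Kdm4c and Setd4.

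**Figure D3:**
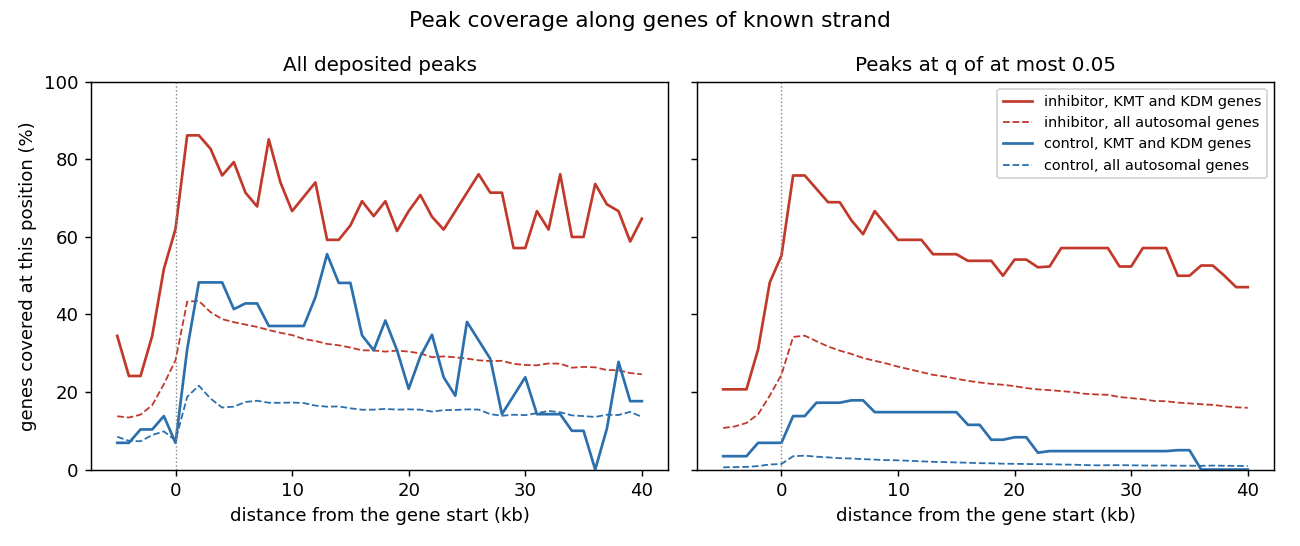
Percent of genes covered at each distance from the gene start (kb) with inhibitor (red) and with DMSO (blue), for the 29 KMT and KDM genes of known strand (solid) and all autosomal genes of known strand (dashed); genes shorter than the distance drop out. At 2 kb the solid lines stand at 86.2% with inhibitor and 48.3% with DMSO, against 43.5% and 21.6% for all genes.

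The promoter window, 250 bases before to 50 after the start in the same table, was overlapped by an inhibitor peak at 19 of 29 members (65.5%, against 32.1% of windows of autosomal genes) and by a control peak at 3 (10.3%, against 8.7%). By strong peaks the counts were 17 (58.6%, against 27.6%) and 3 (10.3%, against 1.65%). The 3 windows with a control peak were those of Setd2, Setd5 and Kmt2d, although the windows of Setd5 and Kmt2d lie 27673 and 2872 bases inside the gene bodies used here. The windows were rich in CpG, with a median of 27 CpG and 62.7% GC, against 14 and 56.7% over all windows.

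The windows of Ezh2 and Ezh1 are shown because these paralogues were 71.0 points apart with inhibitor. That of Setd2 carries peaks in both lists, and that of Kmt5a belongs to the gene with the largest difference. The sequences are from RefSeq, GRCm38.p6, printed in the direction of the gene. Capitals mark the GC box GGGCGG and the CCAAT box on either strand.
Ezh2, chr6:47594981-47595280, minus strand: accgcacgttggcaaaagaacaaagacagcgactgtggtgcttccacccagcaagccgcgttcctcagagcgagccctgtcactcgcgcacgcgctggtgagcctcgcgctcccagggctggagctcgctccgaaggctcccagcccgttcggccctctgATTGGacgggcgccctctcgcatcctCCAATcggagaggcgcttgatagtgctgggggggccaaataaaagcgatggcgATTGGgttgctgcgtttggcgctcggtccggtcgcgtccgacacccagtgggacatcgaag
Ezh1, chr11:101226414-101226713, minus strand: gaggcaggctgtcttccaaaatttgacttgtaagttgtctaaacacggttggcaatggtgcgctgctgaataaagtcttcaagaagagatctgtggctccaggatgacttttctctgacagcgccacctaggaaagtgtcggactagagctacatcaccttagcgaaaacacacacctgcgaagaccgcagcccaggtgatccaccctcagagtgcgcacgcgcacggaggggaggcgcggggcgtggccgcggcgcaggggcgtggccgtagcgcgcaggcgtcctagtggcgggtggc
Setd2, chr9:110532347-110532646, plus strand: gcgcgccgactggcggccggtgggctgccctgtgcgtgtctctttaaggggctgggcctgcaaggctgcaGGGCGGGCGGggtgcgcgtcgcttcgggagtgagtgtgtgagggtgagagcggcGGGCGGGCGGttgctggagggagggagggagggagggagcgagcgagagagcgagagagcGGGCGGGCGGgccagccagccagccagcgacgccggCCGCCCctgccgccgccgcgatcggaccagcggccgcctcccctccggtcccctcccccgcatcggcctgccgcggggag
Kmt5a, chr5:124439680-124439979, plus strand: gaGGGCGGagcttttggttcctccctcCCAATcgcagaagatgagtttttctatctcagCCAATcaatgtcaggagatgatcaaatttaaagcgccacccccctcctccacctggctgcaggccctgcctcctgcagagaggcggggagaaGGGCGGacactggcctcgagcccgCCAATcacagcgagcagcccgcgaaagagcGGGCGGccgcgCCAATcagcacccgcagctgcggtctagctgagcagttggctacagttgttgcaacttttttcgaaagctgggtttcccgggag

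An inhibitor peak covered all of the Ezh2, Setd2 and Kmt5a windows and none of the Ezh1 window, whose strong peak begins 0.212 kb into the gene body. A control peak covered the Setd2 window only. The Ezh2 window holds 3 CCAAT boxes and no GC box, the Kmt5a window 4 and 3, the Setd2 window 7 GC boxes that partly overlap, and the Ezh1 window neither. Among the members' 29 windows, 62.1% held a GC box and 41.4% a CCAAT box, against 47.3% and 39.1% of all windows. The ETS core CCGGAA was found in 27.6% (against 19.5%) and the letters AAGATGG, part of the YY1 motif, in 10.3% (against 6.40%). The TATA box TATAAA (13.5% of all windows) and GCATGCG, part of the NRF1 motif (4.58%), were found in none. These letters describe the windows and show no binding.

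The members are long genes, with a median body of 48.2 kb, against 17.5 kb for all autosomal coding genes. Among the 14 members of 50 to 100 kb, 12 (85.7%) were marked with inhibitor and 4 (28.6%) with DMSO, against 31.7% and 7.13% of all genes of that length. Among the 6 members over 100 kb, 5 (83.3%) and 0 were marked, against 18.6% and 2.51%. Among the 15 members of 20 to 50 kb the numbers were 5 (33.3%) and 0, against 31.2% and 5.57%. Their marked share with inhibitor was thus close to that of all genes of like length. However, 10 of these 15 (66.7%, against 36.9%) were covered at least 25 points more with inhibitor. By strong peaks this held for 8 (53.3%, against 32.6%). Of the 5 members under 20 kb, 2 (40%) and 0 were marked, against 25.9% and 6.16%. Strong peaks with inhibitor marked 11 of the 14 members of 50 to 100 kb (78.6%, against 20.4%). They marked only 2 of the 6 over 100 kb (33.3%, against 10.1%). At 20 to 50 kb they marked 4 of 15 (26.7%, against 22%) and under 20 kb 1 of 5 (20%, against 21.7%). Across the 40 genes the covered percent had a Spearman correlation with gene length of 0.40 with inhibitor and 0.63 with DMSO, and the lists correlated with each other at 0.66. These values share the same 2 libraries and describe genes, which are not replicates.

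**Figure D4:**
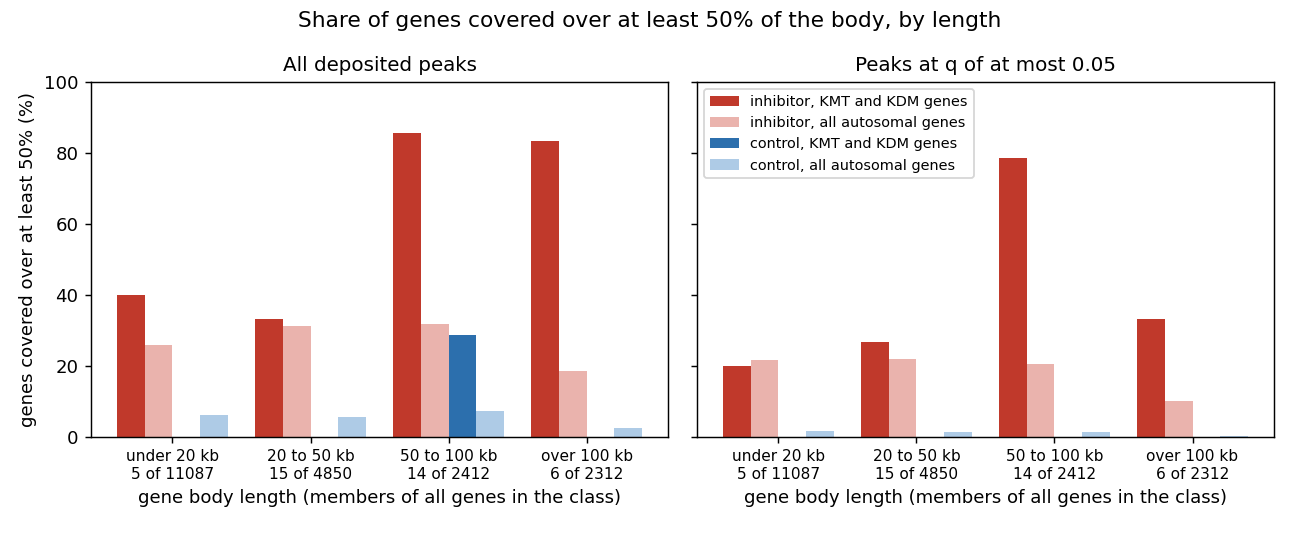
Share of genes covered over at least 50% of the body with inhibitor (red) and with DMSO (blue), for KMT and KDM genes (dark) and all autosomal genes (pale), by gene body length. The dark red bars stand at 85.7% and 83.3% for genes of 50 to 100 kb and over 100 kb on the left, and at 33.3% for 20 to 50 kb, where the pale bar is at 31.2%. On the right, by strong peaks, the dark red bars for 50 to 100 kb and over 100 kb stand at 78.6% and 33.3%.

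Partner proteins of these enzymes also varied widely, and 27% of all autosomal genes were marked with inhibitor and 5.73% with DMSO. Of 8 partners of Polycomb repressive complex 2, 6 were marked with inhibitor and 2 with DMSO, with medians of 92.0% and 33.5%. Suz12, a core subunit beside Ezh2, was covered over 99.8% and 17.4%, and Jarid2, a cofactor that helps the complex bind chromatin, over 94.6% and 43.7%. Of 10 COMPASS partners, 5 and 1 were marked, with medians of 52.8% and 6.27%. Men1, the MLL cofactor menin, was covered over 76.6% and 0%, and Wdr5, a core subunit, over 84.1% and 9.12%.

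Of 6 heterochromatin and H3K9 partners, 5 and 2 were marked, with medians of 93.3% and 41.5%. Trim28, the corepressor KAP1, was covered over 95.8% and 32.9%, though it overlaps another coding gene, and Cbx1, an HP1 protein, over 100% and 39.5%. Of 5 CoREST and LSD1 partners, 3 and 1 were marked, with Hdac1, a histone deacetylase, at 100% and 28.1%. Hdac2 was covered over 76.6% and 48.0%.

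Of 9 arginine methyltransferase genes, 4 were marked with inhibitor and 0 with DMSO. Prmt1 was covered over 83.5% and 9.23% and Prmt9 over 74.9% and 10.4%. Of 10 other lysine methyltransferases that the symbol rule leaves out, 2 (20%, against 27% of all genes) and 0 (against 5.73%) were marked, with medians of 20.0% and 11.8%. The marked genes were Prdm2 (87.8% and 36.2%) and Ash1l (73.6% and 27.1%). Of 7 other JmjC proteins, 5 and 1 were marked, with Jmjd6 and Riox1 at 100% and 0%, although both overlap another coding gene. The covered percent was lower with inhibitor at 4 of the 10 other lysine methyltransferases, against 5115 of 20661 autosomal coding genes. The same held at 1 arginine methyltransferase, 1 CoREST or LSD1 partner and 0 genes of the other partner lists.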

How the data were processed

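The values are 2 broad peak lists from ChIP-seq of H3K79me2, with peaks called separately for each library. BWA, MACS2 2.1.0 and mm10 are listed in the submitters' processing notes, which give no roles here. The deposited columns give fold enrichment (the authors' ratio to local background), −log10 p and −log10 q, and a score that the deposited −log10 q fixes (10 times its value, cut to a whole number). Use of the inputs is not given in the sources used here. No peak had −log10 p under 1.00. The lists hold no read counts, so depth and counting error are unknown, and no interval was computed.

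Touching peaks were merged and intersected with RefSeq gene bodies of GRCm38.p6, the assembly of mm10, with Python 3.11.15 (pandas 2.3.3, numpy 2.4.6, scipy 1.17.1). Overlaps counted from 1 base. Strand and promoter windows, the one nearest the gene start for each gene, came from a RefSeq promoter table that matched 29 of 40 members. Of the members 12 overlap the position of another coding gene, so a peak there may belong to either. Coverage functions were tested on simulated peaks. No test compares the conditions, which have 1 library each. Residue classes follow the best known substrate. All members are named, with detail for the largest and smallest differences, members with control peaks at q of at most 0.05, members under 50% in the inhibitor list, and paralogues at least 25 points apart. Up to 2 partner genes per list are named, those marked in 1 list only with the largest difference, so they do not stand for their lists. The members and lists were chosen with earlier results of these data known. The profile along genes and the background among genes with an inhibitor peak were added after the values had been seen.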

Additional observations from a re-analysis of the deposited data

How the results depend on the processing

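No paired analysis was possible because each condition has 1 library. The 24 members marked with inhibitor became 13 with −log10 q of at least 5 and 13 with fold enrichment of at least 3, 14 when 80% of the body was required, 40 when any covered base was enough, and 15 of 28 without overlapping genes. The 4 marked with DMSO became 0 at q of at most 0.05, at −log10 q of at least 5, at fold enrichment of at least 3 and at 80% of the body. They became 35 with any covered base, 20 at the better covered 5 kb end, 13 of 29 at the first 5 kb, 1 of 28 without overlapping genes and 2 of the 29 members of known strand, the last an alternative added after the values had been seen. The 30 members with a difference of at least 25 points became 18 at −log10 q of at least 5, 18 at fold enrichment of at least 3, 17 of 29 at the first 5 kb and 12 with 50 points required. With 10 points required, 1 member, Kdm4d, was lower. The median covered percent with inhibitor was 46.0% at q of at most 0.05, 9.11% at fold enrichment of at least 3 and 0% at −log10 q of at least 5. The median difference was 9.11 points and 0 points under the last pair of settings. The difference at Kdm5a turned to −3.19 points at −log10 q of at least 5. These stricter settings keep fewer peaks by construction. With any covered base the shares of all autosomal genes were 53% with inhibitor and 57.4% with DMSO. At q of at most 0.05 the DMSO share was 1.38%. At the first 5 kb it was 13.5% of genes of known strand, and 34.3% differed by at least 25 points. No share over all genes is given for the other settings, so those counts do not show how members stand against other genes. Merging peaks within 1 kb and cutting the control list to the length that inhibitor peaks cover changed the side of the 25 point threshold for 0 of 40 members. These 2 settings altered the lists little, so they say little about how stable the results are. The lists cover 233.6 Mb and 234.8 Mb before the cut, and merging left the median covered percents at 67.2% and 17.8%.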

Other observations

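Genes of the same families on the sex chromosomes lie outside the autosomal rule. Kdm6a, the H3K27 demethylase UTX on chromosome X (18160862 to 18279936), was covered over 85.9% with inhibitor and 28.4% with DMSO, and over 70.3% and 14.4% by peaks with q of at most 0.05. Suv39h1, the H3K9 methyltransferase paralogous to Suv39h2, was covered over 62.5% and 9.90%, and Kdm5c, an H3K4 demethylase, over 57.0% and 10.2%. By strong peaks the values were 59.5% and 0% at Suv39h1 and 12.6% and 0% at Kdm5c. Of 966 coding genes on chromosome X, 13.5% were marked with inhibitor and 1.55% with DMSO. Kdm5d, the Y-linked relative of Kdm5c, was covered over 47.7% and 1.10%. Ezhip on chromosome X, an inhibitor of Polycomb repressive complex 2, held no peak in either list.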
